A study of Mus musculus with 9 samples.

Results

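The family of miR-204 and miR-211 was described here through its 2 mouse hairpins, mmu-mir-211 and mmu-mir-204, in small RNA libraries of B16F1 cells. All entries of the count table whose name ends in one of these hairpins were taken, together with the entries that carry the mature names of their arms. This gave 49 of 6414 entries, 44 for mmu-mir-211 and 5 for mmu-mir-204, and they are 2 of the 391 known hairpins with sequence tags. Together the entries held 1.43% of the 2381030 counts of the table. B16F1 is an established melanoma line from the skin of C57BL/6J mice. The study compared 3 control cultures without exposure, 3 cultures exposed to 5 mM L-Tyr (L-tyrosine, the substrate of melanin synthesis) and 3 exposed to 5-Brd-2′-dU (bromodeoxyuridine, or BrdU, a thymidine analog that represses pigmentation) at 2.5 µg/mL, each for 72 h. All cultures come from 1 cell line, and the labels do not give the culture behind each library, while the methods of the study call replicates independent in general. The p-values measure the spread between these libraries, which may be in part technical.

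A hairpin is cut into a 5p and a 3p arm of about the length of a mature miRNA, and the arm loaded into Argonaute finds its targets through the seed, the bases 2 to 8 from its 5′ end. miR-211 is encoded in an intron of Trpm1, a gene of the melanocyte lineage that is transcribed under Mitf, the master regulator of pigment cells. miR-204 comes from an intron of Trpm3 and is known from the retinal pigment epithelium and other tissues. In melanocytes miR-211 is abundant, and its loss is known from many melanomas. On the mm9 build the mmu-mir-211 hairpin lies at chr7:71350692-71350797 on the plus strand, inside Trpm1 (chr7:71298721-71414643), and the mmu-mir-204 hairpin at chr19:22825095-22825162 on the plus strand, inside Trpm3 (chr19:22213609-23064374). No annotated exon of the host gene overlapped either hairpin, so both are intronic.

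The mature sequences of both hairpins (RefSeq, GRCm38.p6) are shown with the seed in capitals, since the shared seed defines the family.
miR-211-5p: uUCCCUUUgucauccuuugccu
miR-204-5p: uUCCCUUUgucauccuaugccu
miR-211-3p: gCAAGGACagcaaaggggggc
miR-204-3p: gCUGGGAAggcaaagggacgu
Both 5p arms share the seed UCCCUUU, and 3 of the 1738 mature miRNAs in the RefSeq table hold it, the other one being miR-7670-3p. The 5p arms differ by 1 base, A17U, with positions counted from 1 at the 5′ end of miR-204-5p. The 3p arms have different seeds. Within the mmu-mir-211 hairpin, the 5p arm stands at chr7:71350717-71350738 and the 3p arm at chr7:71350754-71350774 (mm9), shown in capitals.
mmu-mir-211: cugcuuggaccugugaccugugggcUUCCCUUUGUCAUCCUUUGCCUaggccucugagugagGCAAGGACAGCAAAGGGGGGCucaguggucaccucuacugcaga

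The table lists reads as short tags of 13 to 20 nt, so the whole mature miR-211-5p of 22 nt could not appear as a tag. The entries with a mature name held 0 counts for miR-211-5p, miR-204-5p and miR-204-3p, and 1 count, in control replicate 1, for miR-211-3p. All levels of the family therefore rest on tags that lack 1 or more bases of the mature sequence. The most abundant tags of miR-211-5p are shown as DNA letters, with the bases of the seed that each tag keeps in capitals.
positions 3 to 22: CCCTTTgtcatcctttgcct
positions 1 to 20: tTCCCTTTgtcatcctttgc
positions 4 to 22: CCTTTgtcatcctttgcct
positions 6 to 22: TTTgtcatcctttgcct
positions 5 to 22: CTTTgtcatcctttgcct
positions 2 to 21: TCCCTTTgtcatcctttgcc
In order, these tags held 32%, 21.9%, 10.5%, 8.31%, 8.26% and 5.92% of the miR-211-5p counts over the 9 libraries. The leading tag starts at position 3 and reaches the annotated 3′ end, while the tag of positions 1 to 20 keeps the annotated 5′ start and the seed.

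Totals of the count table per library were 198810 to 424122 in control cells, 144452 to 238245 with L-Tyr and 171362 to 384486 with 5-Brd-2′-dU. The study reported far more reads per group on average, so these totals are not the reads sequenced. A count of 0 therefore allows a level of 3 counts, or 7.07 to 20.8 CPM (the count relative to the library total, on the usual CPM scale), for counting error only. Levels below are CPM scaled by the TMM factors of edgeR. Replicate 3 of 5-Brd-2′-dU stood apart: the arms of 12 miRNAs that mark erythroid, leukocyte, stromal, endothelial or hepatic cells summed to 281900 CPM there. The same sum was 1725 to 2970 CPM in control cells, 2300 to 8134 CPM with L-Tyr, and 3833 and 4675 CPM in replicates 1 and 2 of 5-Brd-2′-dU. Most of the sum in replicate 3 was miR-143-3p, a stromal miRNA, at 263700 CPM. The leukocyte marker miR-142a-3p was at 0 in all 9 libraries, and each other library also had 2 to 7 of the other marker arms at 0. Replicate 3 of 5-Brd-2′-dU had 1 other marker arm at 0, the leukocyte miR-150-5p (70.59 CPM in L-Tyr replicate 2). Hepatic miR-122-5p was at 21.41 CPM there, below L-Tyr replicate 2 (78.44 CPM). Erythroid miR-486a-5p was at 153.5 CPM, below 5-Brd-2′-dU replicate 1 (236.7 CPM). All remaining marker arms with counts were highest in replicate 3. In CPM scaled by TMM, the level of miR-211-5p in replicate 3 of 5-Brd-2′-dU lay between those of replicates 1 and 2. Its share of the raw counts was 0.742% and 0.754% in replicates 1 and 2, and 0.511% in replicate 3, the lowest of the 9 libraries. Tests of the arm sums, and of the tags compared in full between the exposures, are given with and without this replicate. For the arm ratio and some shares, only the difference in the mean is given without it.

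miR-211-5p, the guide arm of the hairpin, had its highest levels with L-Tyr and its lowest with 5-Brd-2′-dU, and the difference between these exposures passed the test given below its values. Its sum over all tags was 9187, 13920 and 15000 CPM in control cells, 24640, 24340 and 19740 CPM with L-Tyr, and 7337, 6543 and 6959 CPM with 5-Brd-2′-dU. The 3 groups did not overlap. In CPM, the means of the groups came to 12700 ± 3094 (control), 22910 ± 2747 (L-Tyr) and 6947 ± 397 (5-Brd-2′-dU; SD, n = 3). In the raw table, miR-211-5p took 1.24% ± 0.246 of all counts in control cells, 2.44% ± 0.223 with L-Tyr and 0.669% ± 0.137 with 5-Brd-2′-dU. Among the 544 arms of known hairpins with counts it ranked 21 to 26 in control libraries, 10 to 13 with L-Tyr and 37 to 40 with 5-Brd-2′-dU.

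**Figure D1:**
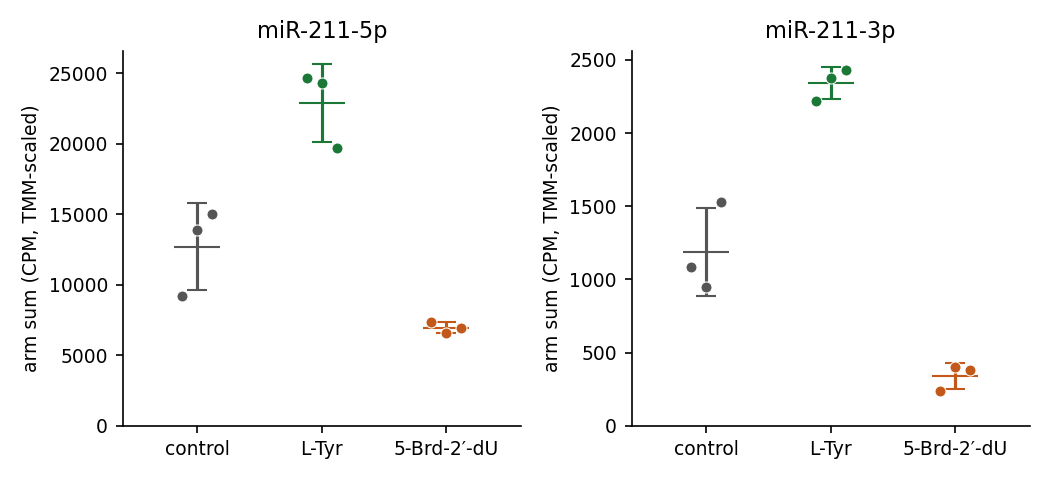
Levels of the arm sums of miR-211-5p (left) and miR-211-3p (right) in CPM scaled by TMM, for each library (points) with the group mean and SD (bars, n = 3). In both panels all L-Tyr libraries lie above, and all 5-Brd-2′-dU libraries below, the control libraries.

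miR-211-3p, the passenger arm, kept the same order at a lower level. Its sum was 1087, 945.1 and 1527 CPM in control cells, 2216, 2377 and 2429 CPM with L-Tyr, and 236.7, 403.9 and 381.9 CPM with 5-Brd-2′-dU. Again no library of one group lay within the range of another. The means were 1186 ± 303, 2341 ± 111 and 340.8 ± 90.8 CPM (SD, n = 3), in the same order.

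The tests were fitted over all hairpin arms with edgeR's quasi-likelihood test and Benjamini-Hochberg adjustment. Of the arms tested, 2.32% were called at an adjusted p under 0.05 for L-Tyr against control, 3.18% for 5-Brd-2′-dU against control and 2.38% for 5-Brd-2′-dU against L-Tyr. Both miR-211 arms were called in the last comparison, where miR-211-5p had the smallest p of 252 arms and miR-211-3p the next. miR-211-5p fell by 1.63 ± 0.189 on the log2 scale (SE), a 3.09-fold lower level with 5-Brd-2′-dU than with L-Tyr, with an edgeR adjusted p of 0.00681. miR-211-3p fell by 2.69 ± 0.379, or 6.45-fold, with an edgeR adjusted p of 0.0121. Without replicate 3 of 5-Brd-2′-dU both calls held, with log2 changes of -1.69 (edgeR adjusted p = 0.0129) and -2.83 (edgeR adjusted p = 0.0309). Without replicate 2 of 5-Brd-2′-dU neither was called (edgeR adjusted p = 0.0548 for each, log2 changes of -1.59 and -2.83), and without replicate 3 of L-Tyr miR-211-3p was not called (log2 change of -2.67, edgeR adjusted p = 0.115). With the replicate number as a block, neither arm was called (log2 changes of -1.63 and -2.72, edgeR adjusted p = 0.0613 and 0.079).

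Against control cells neither exposure passed the threshold. For L-Tyr the log2 change was 0.81 ± 0.204 for miR-211-5p (edgeR adjusted p = 0.108) and 0.95 ± 0.29 for miR-211-3p (edgeR adjusted p = 0.148). For 5-Brd-2′-dU it was -0.89 ± 0.232 for miR-211-5p (edgeR adjusted p = 0.0809) and -1.82 ± 0.41 for miR-211-3p (edgeR adjusted p = 0.0591), and without replicate 3 of 5-Brd-2′-dU it was -0.84 (edgeR adjusted p = 0.177) and -1.84 (edgeR adjusted p = 0.0744). The median log2 change of all arms was -0.10, -0.09 and 0.11 in the 3 comparisons, in the order L-Tyr against control, 5-Brd-2′-dU against control and 5-Brd-2′-dU against L-Tyr. DESeq2's Wald test called miR-211-5p in both comparisons with control cells (adjusted p = 0.00962 and 0.0479) and miR-211-3p for 5-Brd-2′-dU (adjusted p = 0.0113). Over the 16 alternatives the edgeR and DESeq2 adjusted p of miR-211-5p ranged from 0.00962 to 0.436 for L-Tyr against control and from 0.0479 to 0.303 for 5-Brd-2′-dU against control. Both comparisons share the 3 control libraries. In these bulk cultures, fewer cells that express miR-211 and less miR-211 in each cell cannot be told apart.

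Groups that do not overlap were common in this table, since they were seen in 18.9% of arms tested for L-Tyr against control, in 27.9% for 5-Brd-2′-dU against control and in 21% for 5-Brd-2′-dU against L-Tyr. An order with every L-Tyr library above and every 5-Brd-2′-dU library below all control libraries was seen in 2 of 298 arms, or 0.671%, and these were the 2 arms of mmu-mir-211. The opposite order was seen for miR-503-5p, a relative of miR-16 that is known to act on cyclins.

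**Figure D2:**
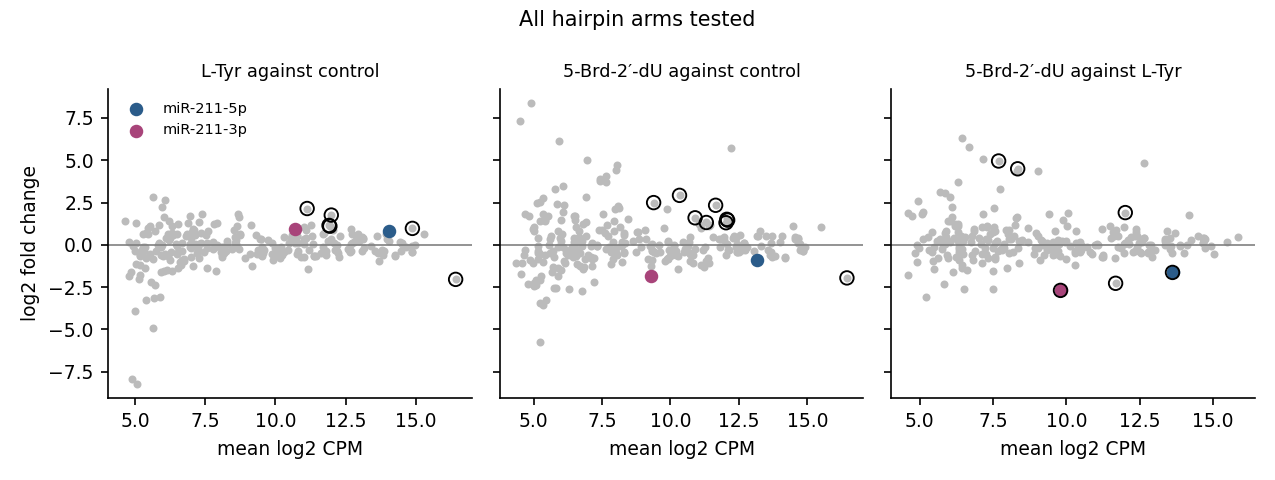
Log2 fold change of each hairpin arm tested (vertical) against its mean log2 CPM in the libraries compared (horizontal), for the 3 comparisons. Filled blue and purple points are miR-211-5p and miR-211-3p, and black rings mark an edgeR adjusted p under 0.05, which both miR-211 arms have only in the panel of 5-Brd-2′-dU against L-Tyr.

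The arms of one hairpin are cut from the same transcript, so their ratio within a library needs no scaling. The log2 ratio of miR-211-5p to miR-211-3p counts, with 0.5 added to each, was 3.08, 3.88 and 3.29 in control cells, 3.47, 3.35 and 3.02 with L-Tyr, and 4.94, 4.01 and 4.18 with 5-Brd-2′-dU. All 5-Brd-2′-dU libraries lay above the others, while control and L-Tyr libraries overlapped. The mean log2 ratio was 0.96 higher with 5-Brd-2′-dU than in control cells (exact permutation p = 0.1, adjusted over the 3 pairs 0.15) and 1.09 higher than with L-Tyr (exact permutation p = 0.1, adjusted 0.15). Without replicate 3 of 5-Brd-2′-dU these differences in the mean were 1.06 and 1.19. L-Tyr and control differed by -0.13 (exact permutation p = 0.8). With 3 libraries against 3 the two-sided test cannot give a p under 0.1, so these differences could not pass 0.05.

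The 5′ start of a tag sets which bases are read as its seed. Starts at positions 1 to 6 of miR-211-5p held all but 0.0702% of its counts, and 35.4% were at position 3 and 24.3% at the annotated position 1. Counts at position 3 were 2691, 5171 and 4968 CPM in control cells, 9442, 10490 and 7164 CPM with L-Tyr, and 2148, 2008 and 1292 CPM with 5-Brd-2′-dU. These groups did not overlap, and the log2 ratio of the means was 1.08 for L-Tyr to control, -1.24 for 5-Brd-2′-dU to control and -2.31 for 5-Brd-2′-dU to L-Tyr. Counts at position 1 were 2885, 3967 and 2431 CPM in control cells, 5225, 4808 and 3789 CPM with L-Tyr, and 2130, 1692 and 3016 CPM with 5-Brd-2′-dU. Here both exposures overlapped the control cells, every 5-Brd-2′-dU library lay below every L-Tyr library, and the log2 ratios of the means were 0.57, -0.44 and -1.02. Starts at positions 4, 5 and 6 were likewise lower in every 5-Brd-2′-dU library than in every L-Tyr library, and starts at position 2 overlapped. All starts are parts of the miR-211-5p sum, whose groups did not overlap either. Between these exposures 21% of all arms tested did not overlap, and the same share over all starts was not computed. These starts, and the lengths given with them, are those of tags of at most 20 nt, and whether they are the 5′ ends of the whole reads was not tested.

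**Figure D3:**
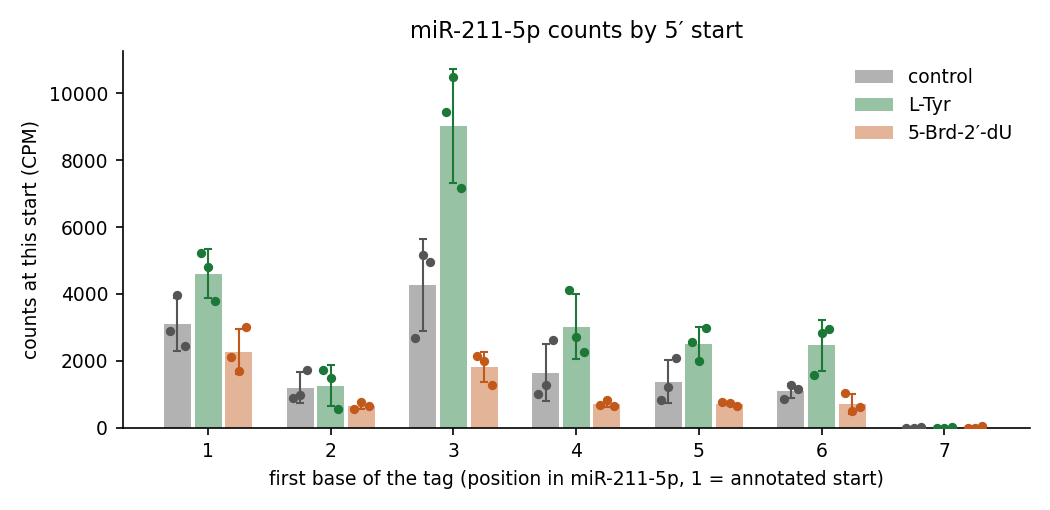
Counts of miR-211-5p at each 5′ start, in CPM (vertical), by the first base of the tag in the mature sequence (horizontal). Bars are group means with SD (n = 3) and points are libraries. Position 3 holds the largest gap between L-Tyr and 5-Brd-2′-dU, and at position 1 the control libraries overlap both exposures.

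As a share of the miR-211-5p counts of a library, the start at position 3 took 29.3%, 37.1% and 33.1% in control cells, 38.3%, 43.1% and 36.3% with L-Tyr, and 29.3%, 30.7% and 18.6% with 5-Brd-2′-dU. The 5-Brd-2′-dU libraries lay below the L-Tyr libraries, by 13.1 percentage points in the mean (exact permutation p = 0.1, adjusted over the 3 pairs 0.2), and by 9.26 points without replicate 3 of 5-Brd-2′-dU, the lowest. Both exposures overlapped the control cells (exact permutation p = 0.2 for each). The share at the annotated start, a measure added after the counts had been seen, was 31.4%, 28.5% and 16.2% in control cells, 21.2%, 19.8% and 19.2% with L-Tyr, and 29%, 25.9% and 43.3% with 5-Brd-2′-dU. It was higher in every 5-Brd-2′-dU library than in every L-Tyr library, with a mean difference of 12.7 percentage points (exact permutation p = 0.1, adjusted 0.3), which was 7.4 points without replicate 3 of 5-Brd-2′-dU. The length of miR-211-5p tags showed no such separation. Tags of 20 nt held 62.4% ± 3.99 of miR-211-5p counts in control cells, 59.3% ± 6.5 with L-Tyr and 58.8% ± 4.42 with 5-Brd-2′-dU (SD, n = 3), with overlapping groups and exact permutation p-values from 0.5 to 0.9. For miR-211-3p, compared after its values had been seen, tags of 20 nt held 48.7%, 51.7% and 52.9% of counts in control cells, 58.5%, 62% and 82.1% with L-Tyr, and 39%, 55.9% and 31.8% with 5-Brd-2′-dU. Every L-Tyr library lay above all others, with a difference in the mean of 16.5 percentage points from control to L-Tyr and of -25.3 from L-Tyr to 5-Brd-2′-dU (exact permutation p = 0.1 and adjusted p = 0.15 for each), while control and 5-Brd-2′-dU libraries overlapped (exact permutation p = 0.4). Without replicate 3 of 5-Brd-2′-dU the difference from L-Tyr was -20.1 points.

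Single tags were tested over all entries of the table. The share of tags called was 0.0796% for L-Tyr against control, 0% for 5-Brd-2′-dU against control and 0.162% for 5-Brd-2′-dU against L-Tyr. The tag of positions 3 to 22, at chr7:71350719-71350738 (mm9), was 1 of the 2 tags called in the last comparison. It was at 2373, 4919 and 4882 CPM in control cells, 8210, 8767 and 6706 CPM with L-Tyr, and 1450, 1948 and 1014 CPM with 5-Brd-2′-dU. The 3 groups did not overlap. It fell by 2.47 ± 0.316 on the log2 scale (SE) from L-Tyr to 5-Brd-2′-dU (edgeR adjusted p = 0.00818). The call held without replicate 3 of 5-Brd-2′-dU (-2.22, edgeR adjusted p = 0.0286) and was lost without L-Tyr replicate 2 (-2.38, edgeR adjusted p = 0.129), L-Tyr replicate 3 (-2.55, edgeR adjusted p = 0.0756) or 5-Brd-2′-dU replicate 1 (-2.38, edgeR adjusted p = 0.232). Against control cells its log2 change was 1.01 ± 0.294 for L-Tyr (edgeR adjusted p = 0.275) and -1.43 ± 0.371 for 5-Brd-2′-dU (edgeR adjusted p = 0.148).

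The tag of positions 1 to 20, which keeps the seed, was at 2862, 3905 and 2043 CPM in control cells, 4430, 4063 and 2933 CPM with L-Tyr, and 1948, 1510 and 2881 CPM with 5-Brd-2′-dU. Its L-Tyr and 5-Brd-2′-dU libraries did not overlap, but by a narrow gap, and its log2 change of -0.88 ± 0.335 between these groups was not called (edgeR adjusted p = 0.491, and 0.42 without replicate 3 of 5-Brd-2′-dU, with a log2 change of -1.16). Of the 26 tags of miR-211-5p, 16 passed the filter on low counts in each comparison, and none but the tag of positions 3 to 22 was called in any of them. For 5-Brd-2′-dU against L-Tyr, 13 of the 16 had a negative log2 change, with a median of -1.04, where 48.5% of all tags tested were negative and their median was 0.03. For L-Tyr against control 13 of 16 were positive (median 0.69), beside 45.4% of all tags (median -0.13). For 5-Brd-2′-dU against control 11 of 16 were negative (median -0.60), beside 50.2% of all tags (median -0.01). These tags share their source, and are not replicates of an exposure.

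The 16 tags of miR-211-3p were led by positions 1 to 20, with 41% of the counts of the arm.
positions 1 to 20 of miR-211-3p: gcaaggacagcaaagggggg
It was at 346, 448.7 and 482.3 CPM in control cells, 866.2, 1105 and 983 CPM with L-Tyr, and 51.6, 209.3 and 77.2 CPM with 5-Brd-2′-dU. The groups did not overlap, and the log2 change from L-Tyr to 5-Brd-2′-dU was -3.15 ± 0.65 (edgeR adjusted p = 0.127), and -2.86 without replicate 3 of 5-Brd-2′-dU (edgeR adjusted p = 0.42). The other tags of miR-211-3p with 5% or more of the arm were those of positions 1 to 19 (18.1%), 2 to 20 (9.24%) and 2 to 21 (8.36%), and positions 1 to 19 with an added A (5.02%). The first of these was at 126.1 CPM in replicate 1 of 5-Brd-2′-dU and at 0 in replicates 2 and 3. In L-Tyr against control 6 of the 16 tags passed the filter, and in each comparison with 5-Brd-2′-dU 4 did, all 4 with a negative log2 change and none called.

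**Figure D4:**
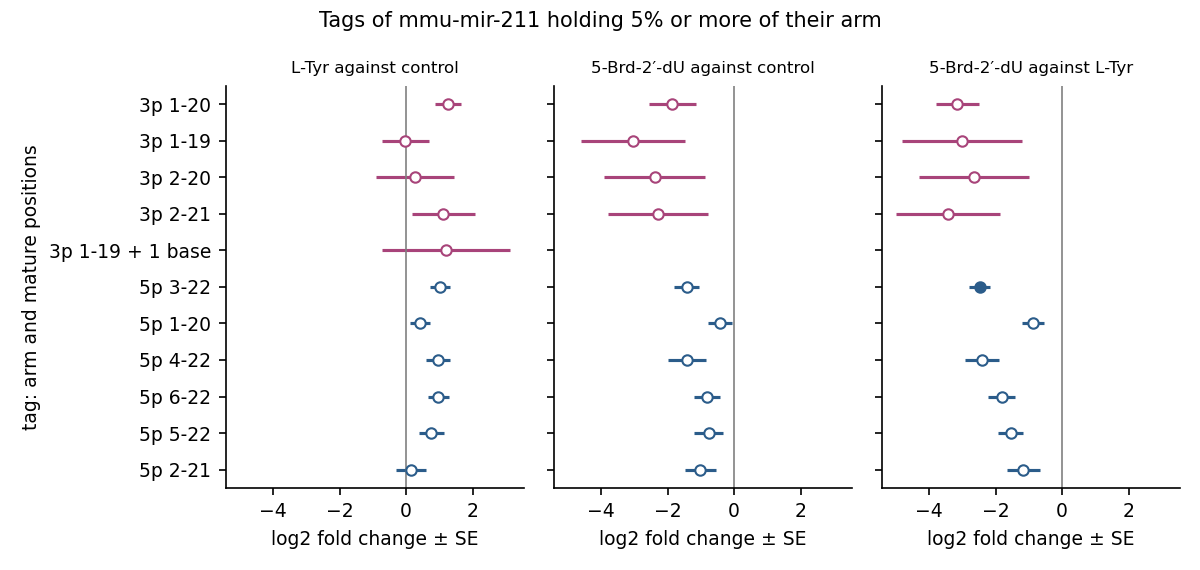
Log2 fold change with its SE (horizontal) of the mmu-mir-211 tags that hold 5% or more of their arm, named by arm and mature positions (vertical), in the 3 comparisons. Filled points have an edgeR adjusted p under 0.05, which 1 tag, positions 3 to 22 of miR-211-5p, has against L-Tyr, and a tag without a point did not pass the filter.

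Most tags matched the hairpin, at 97.8% of miR-211-5p counts and 89.1% of miR-211-3p counts. Tags of miR-211-5p with 1 to 3 bases at the 3′ end that the hairpin does not encode held 2.13% of its counts, and these shares were compared after the counts had been seen. The tags with an added T, in capitals, can be the DNA reading of an added uridine, a tail that terminal uridylyltransferases put on small RNAs. A mismatch at that base was not told apart from an added base. Tags listed under mmu-mir-204 are not counted here.
positions 5 to 22 with T: ctttgtcatcctttgcctT
positions 6 to 22 with T: tttgtcatcctttgcctT
Tags with T alone as the added base or bases held 0.517%, 0.792% and 0.529% of miR-211-5p counts in control cells, 2.67%, 2.26% and 4.42% with L-Tyr, and 0.708%, 0.862% and 0.0513% with 5-Brd-2′-dU. Every L-Tyr library lay above all others, while control and 5-Brd-2′-dU libraries overlapped. The mean share was 2.5 percentage points higher with L-Tyr than in control cells (exact permutation p = 0.1, adjusted over the 3 pairs 0.15). The tag of positions 5 to 22 with T had 0, 11 and 11 counts in control cells, 54, 57 and 108 with L-Tyr, and 7, 25 and 0 with 5-Brd-2′-dU, and was not called for L-Tyr against control (log2 change 3.86 ± 1.23, edgeR adjusted p = 0.294). Tags with an added A were found in another pattern. They held 0.465%, 0.679% and 1.59% of miR-211-5p counts in control cells, and 0.0273%, 0% and 0% with L-Tyr, and 0%, 0.207% and 0.667% with 5-Brd-2′-dU (exact permutation p = 0.1 for L-Tyr against control, adjusted 0.3). They were 1 tag, whose sequence the table also lists under mmu-mir-204.

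**Figure D5:**
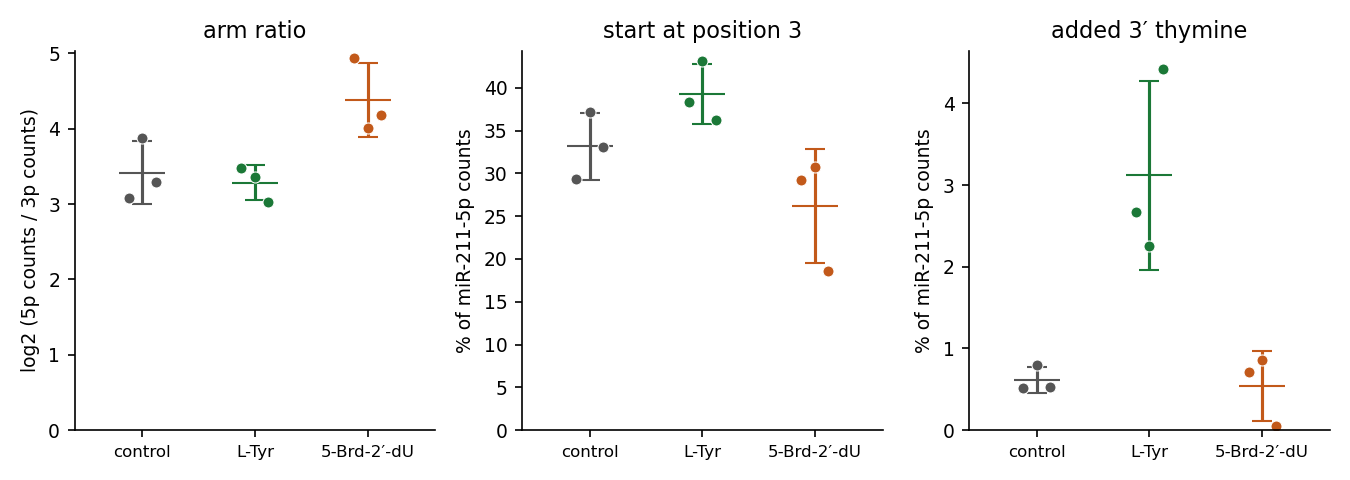
Per library (points) with group mean and SD (bars, n = 3): log2 ratio of miR-211-5p to miR-211-3p counts (left), share of miR-211-5p counts that start at position 3 (middle), and share with an added 3′ thymine (right). The arm ratio is highest in the 5-Brd-2′-dU libraries and the added thymine in the L-Tyr libraries.

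mmu-mir-204 was close to absent from the table. Its 3 tags held 67 counts over the 9 libraries, with 4, 10 and 14 in control cells, 12, 3 and 4 with L-Tyr, and 0, 12 and 8 with 5-Brd-2′-dU. The groups of this sum overlapped, none of the tags or their sum passed the filter, and the 3p arm had 0 counts, which allows up to 3 counts in a library. The tag with 12 counts in all had 1, 5 and 2 in control cells and 0 in each L-Tyr library, so these groups did not overlap. Its 5-Brd-2′-dU libraries, at 0, 1 and 3 counts, overlapped both. The 3 tags are shown with the base at position 17, where the family members differ, in capitals.
28 counts: cctttgtcatcctTtgcctt
27 counts: ttccctttgtcatcctTtgt
12 counts: ttccctttgtcatcctTtga
With positions counted from 1 at the 5′ end of miR-204-5p, and DNA letters, all 3 tags had A17T, the base of miR-211-5p, besides a second difference from mmu-mir-204, G23T, C20T or C20A in the order shown. Each had 1 difference from mmu-mir-211, A23T, C20T or C20A. No entry of the table held positions 12 to 19 as in miR-204-5p, while 29 entries with 31801 counts held them as in miR-211-5p. The entries of miR-211-5p held 31339 counts in all, and those of mmu-mir-204 67, so the 29 include entries listed under other names. The entries named for mmu-mir-204 thus carried the sequence of miR-211 at the base that separates the family, and miR-204 was not detected among the counts of the table. The log2 ratio of miR-211-5p counts to mmu-mir-204 5p counts, with 0.5 added to each, was 8.61 ± 0.676 in control cells, 9.57 ± 1.3 with L-Tyr and 9 ± 2 with 5-Brd-2′-dU (SD, n = 3), and its groups overlapped (exact permutation p from 0.4 to 1). Since the entries under mmu-mir-204 carry the base of miR-211-5p, this ratio cannot say whether the 2 family members move together.

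The likeness of other miRNAs to miR-211-5p was described by Pearson's r of log2 CPM over the 9 libraries, among 223 arms of other hairpins, or of predicted hairpins, with a mean of 100 CPM or more. Libraries share their depth and exposure, so r is a description. The other arm, miR-211-3p, had r = 0.926. The 5 most like arms of other hairpins were miR-10b-5p (r = 0.873), miR-1249-3p (r = 0.867), a predicted hairpin of the table (r = 0.853), miR-501-3p (r = 0.846) and miR-149-5p (r = 0.846). Of these, miR-1249-3p was at 1936, 2235 and 2669 CPM in control cells, 9180, 4279 and 10020 CPM with L-Tyr, and 2049, 920.5 and 1667 CPM with 5-Brd-2′-dU. It was called higher with L-Tyr than in control cells (log2 change 1.76 ± 0.344, edgeR adjusted p = 0.0274) and lower with 5-Brd-2′-dU than with L-Tyr (-2.27 ± 0.443, edgeR adjusted p = 0.0385), and the latter call was lost without replicate 3 of 5-Brd-2′-dU (-2.38, edgeR adjusted p = 0.0815). miR-10b-5p, at 9481 to 11200 CPM in control cells, was at 13960 to 16420 CPM with L-Tyr and 9671 to 10370 CPM with 5-Brd-2′-dU, and was not called. The 3 least like arms were miR-503-5p (r = -0.87), miR-542-3p (r = -0.797) and miR-335-3p (r = -0.757). miR-503-5p was at 550.4 to 742.6 CPM in control cells, 368.7 to 376.1 CPM with L-Tyr and 834.8 to 1484 CPM with 5-Brd-2′-dU, and was not called. miR-335-3p was at 0 to 113.9 CPM in control cells, 27.45 to 107.4 CPM with L-Tyr and 1316 to 1814 CPM with 5-Brd-2′-dU. Its change from control with 5-Brd-2′-dU was not called (log2 change 4.42 ± 1.12, edgeR adjusted p = 0.0755). It was called higher with 5-Brd-2′-dU than with L-Tyr (log2 change 4.49 ± 0.662, edgeR adjusted p = 0.0121), also without replicate 3 of 5-Brd-2′-dU (4.51, edgeR adjusted p = 0.0309). Over the 8 libraries without that replicate, r of these arms of other hairpins was 0.812 to 0.942 for the most like and -0.844 to -0.705 for the least like.

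Other miRNAs known to act on Mitf, on tyrosinase or on pigment transport were described as a list of 17. Of these, 11 passed the filter in each comparison, as 12 arms, since miR-125b-5p comes from 2 hairpins that share its reads, and 0 were called in any comparison by edgeR, also without replicate 3 of 5-Brd-2′-dU. At an unadjusted p under 0.05 edgeR gave 2, 2 and 3 arms in the 3 comparisons, and DESeq2 called 1 arm in each, miR-148b-3p, miR-25-3p and miR-27a-3p in the same order. The median log2 change of the 12 arms was -0.35 for L-Tyr against control, -0.11 for 5-Brd-2′-dU against control and 0.20 for 5-Brd-2′-dU against L-Tyr, beside -0.10, -0.09 and 0.11 over all arms tested. Their values lay on both sides of 0. miR-148b-3p, which targets Mitf, was at 3084, 4269 and 4218 CPM in control cells, 1954, 2000 and 625.4 CPM with L-Tyr, and 767.8, 2166 and 1842 CPM with 5-Brd-2′-dU, with log2 changes from control of -1.40 (edgeR adjusted p = 0.125) and -1.30 (edgeR adjusted p = 0.124). miR-25-3p, also reported to act on Mitf, was at 3089 to 3886 CPM in control cells, 2753 to 3840 CPM with L-Tyr and 1651 to 1913 CPM with 5-Brd-2′-dU, where its log2 change from control was -0.95 ± 0.223 (edgeR adjusted p = 0.0597). Without replicate 3 of 5-Brd-2′-dU the log2 changes from control were -1.35 for miR-148b-3p (edgeR adjusted p = 0.202) and -0.93 for miR-25-3p (edgeR adjusted p = 0.14). miR-27a-3p and miR-101a-3p were at 81200 and 8016 CPM in replicate 3 of 5-Brd-2′-dU, and at no more than 24040 and 1416 CPM in any other library, and neither was called by edgeR. The other listed arms with a mean of 100 CPM or more were miR-152-3p, miR-182-5p, miR-101b-3p, miR-340-5p, miR-145a-5p, miR-125b-5p and miR-330-5p, with edgeR adjusted p-values from 0.217 to 0.991.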

How the data were processed

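Small RNA of 9 B16F1 libraries, 3 per group by the sample labels, was analysed. The deposited table holds raw counts per tag, which the authors obtained from the Small RNA app of BaseSpace against mm9 and miRBase. The normalized counts and the comparison tables with fold changes and p-values that the authors deposited were not used.

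Counts were summed by hairpin and arm (a start number under 35 in the entry name is 5p) and tested in R 4.3.3 with edgeR 4.0.16 (TMM, filterByExpr with a smallest count of 10, quasi-likelihood F test, Benjamini-Hochberg, calls at an adjusted p under 0.05) on the 6 libraries of each comparison, and likewise for single tags. Alternatives used limma 3.58.1 through edgeR and DESeq2 1.42.0. Ratios and shares per library were compared with exact two-sided permutation tests in scipy 1.17.1. log2 CPM used a prior count of 2. The fits were tested on simulated data. Hairpin positions were matched to NCBIM37, and miRNA sequences come from RefSeq. The miRNAs named are all arms of both hairpins, tags with 5% or more of their arm, the 5 most and 3 least like arms, and listed arms of 100 CPM or more; the added-base tags, and 2 starts, were chosen after their values were seen. The members, lists and tests were chosen with earlier results of these data known. Replicate numbers are shared across groups, and the labels do not say whether they pair the libraries, as given with the alternatives. No 2 libraries were identical, with a chi-square per degree of freedom of 29.4 or more between replicates. The spread between replicates was thus larger than counting error alone, and the totals of the count table set only the counting error.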

Additional observations from a re-analysis of the deposited data

How the results depend on the processing

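The direction of both miR-211 arm sums was kept in all 3 comparisons under each of the 16 alternatives run for each. Calls depended on them. For L-Tyr against control, miR-211-5p was called with scaling by total count (log2 change 0.98), with no filter (0.79) and with DESeq2's Wald test (0.81). For 5-Brd-2′-dU against control it was called with no filter (-0.86) and with DESeq2 (-0.87), and miR-211-3p with DESeq2 (-1.79) and in 1 fit of all 9 libraries (-1.78). For 5-Brd-2′-dU against L-Tyr, leaving out 1 library moved the log2 change of miR-211-5p between -1.75 and -1.59 and that of miR-211-3p between -2.83 and -2.51, with the calls lost as given in the report. A fit that leaves out 1 library has fewer samples, and the cause of the other changes was not tested.

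With the replicate number as a block, both arms lost their call for 5-Brd-2′-dU against L-Tyr (log2 changes -1.63 and -2.72, edgeR adjusted p = 0.0613 and 0.079). The labels do not say whether the numbers pair the libraries. Same-numbered libraries of 2 groups had correlations of their deviations from -0.109 to 0.0385 over 298 arms. Those of other numbers reached 0.109, so these correlations cannot show whether a culture or batch was shared. The block changed no other call of an arm sum.

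The number of member tags called for L-Tyr against control went from 0 to 1 with no filter and 3 with DESeq2. For 5-Brd-2′-dU against control it went from 0 to 1 with no filter, and was 0 to 1 when a library was left out. For 5-Brd-2′-dU against L-Tyr it went from 1 to 3 with no filter and with DESeq2, and was 0 to 1 when a library was left out.

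Some differences that were not called changed sign. For L-Tyr against control, the log2 change of miR-211-3p positions 1 to 19 was -0.03, and 0.0021 with DESeq2's size factors, 0.19 with total counts, 0.015 with DESeq2, and -0.71 to 0.32 without 1 library. That of positions 2 to 20 was -0.020 with the replicate block and -1.19 to 1.38 without 1 library, that of positions 1 to 19 with A, 1.20 with all 6 libraries, was -0.14 to 8.19 (8.19 against control libraries that were all at 0), and that of miR-211-5p positions 2 to 21 was -0.16 to 0.50. Without 1 library, the difference in the log2 arm ratio was -0.30 to 0.097 for L-Tyr against control. That in the log2 ratio to mmu-mir-204 was -0.76 to 0.98 for 5-Brd-2′-dU against control and -1.72 to 0.041 against L-Tyr. The difference in the share of 20 nt tags was -5.31 to 0.64 percentage points for L-Tyr against control and -4.24 to 1.77 for 5-Brd-2′-dU against L-Tyr, where it was 0.38 with tags of 17 nt or longer. That in the share with T was -0.23 to 0.17 for 5-Brd-2′-dU against control. The tag with A is left out, and its share is 0, where only tags listed under 1 hairpin are kept.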
